A study of Mus musculus with 20 samples.

Results

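The genes that make cholesterol and the regulators that sense it were followed in mouse bone marrow-derived macrophages exposed to adjuvants on a lipoparticle. The set was a list of 29 gene symbols, and all 29 were among the 24421 genes of the count tables and among the 12132 genes tested. It was taken from the pathway and from SREBP2 control, but chosen with earlier results of these data known. It comprised 8 genes of the mevalonate and isoprenoid steps, 3 of the squalene and lanosterol steps, 9 of the steps after lanosterol, 6 of SREBP2 and its control, and 3 of acetyl-CoA supply, sterol transport and esterification. Poly(A) RNA of 5 mice was sequenced under each of 4 conditions, which gave 20 libraries. The conditions were LP 3M PIC, LP 3M, LP PIC and LP, each given for 48 h, where LP is taken to be the lipoparticle named in the title and the codes 3M and PIC are used as the labels give them. Every culture, LP included, received medium conditioned by L929 fibroblasts, which supplies the macrophage growth factor CSF-1, together with serum and antibiotics, and no culture without lipoparticle was analysed here. The amounts of the adjuvants, and the mice's strain, sex and age, are not given in the sample information used here, so LP 3M PIC is compared with LP 3M and with LP PIC on the assumption that each adjuvant was present in equal amount in both.

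Cholesterol is built from acetyl-CoA through mevalonate and isoprenoid diphosphates, which are joined to squalene, closed to lanosterol and trimmed to cholesterol in the endoplasmic reticulum. The transcription factor SREBP2, encoded by Srebf2, is held in that membrane by the escort SCAP and the INSIG proteins while sterol is plentiful. When sterol runs low it travels to the Golgi, is cut by the site-1 and site-2 proteases and switches on genes of the whole pathway. In macrophages, which also take up cholesterol from particles and debris, surplus sterol is stored as ester or exported through transporters driven by the nuclear receptors LXR.

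The promoters of Hmgcs1, Acat2 and Insig1 are shown because, of the genes with a promoter in the RefSeq table, theirs held the sterol regulatory element or its shorter core. Hmgcs1 held the full element, by which SREBP is classically recognised, and Acat2 and Insig1 held the core alone. RefSeq promoter windows, from 250 bases before to 50 after a gene's start on GRCm38.p6, were matched for 25 of the 29 genes, in 31 windows. Fdps, Fdft1, Sqle and Stard4 had none in the table. On both strands, the sterol regulatory element TCACNCCAC was present in 1 of the 31 windows (3.23%) and in 1.24% of all 32851 windows of the table. Its shorter core CACNCCAC, which lies inside the longer form, was present in 3 of 31 windows (9.68%) and in 6.24% of all. The capitals mark these matches, written as they stand on the gene's strand, so that GTGGCGTG is the core read on the opposite strand.
Hmgcs1: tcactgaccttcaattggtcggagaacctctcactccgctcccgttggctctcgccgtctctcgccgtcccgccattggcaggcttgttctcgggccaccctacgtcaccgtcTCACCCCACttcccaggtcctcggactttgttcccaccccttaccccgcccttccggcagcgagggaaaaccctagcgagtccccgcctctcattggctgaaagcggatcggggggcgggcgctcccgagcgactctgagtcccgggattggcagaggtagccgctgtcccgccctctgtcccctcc
Acat2: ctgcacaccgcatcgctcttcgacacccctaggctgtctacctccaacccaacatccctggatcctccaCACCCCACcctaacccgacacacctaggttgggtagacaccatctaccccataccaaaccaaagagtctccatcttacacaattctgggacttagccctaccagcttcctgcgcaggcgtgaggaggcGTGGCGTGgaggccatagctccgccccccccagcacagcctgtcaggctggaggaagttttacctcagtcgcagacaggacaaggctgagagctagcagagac
Insig1: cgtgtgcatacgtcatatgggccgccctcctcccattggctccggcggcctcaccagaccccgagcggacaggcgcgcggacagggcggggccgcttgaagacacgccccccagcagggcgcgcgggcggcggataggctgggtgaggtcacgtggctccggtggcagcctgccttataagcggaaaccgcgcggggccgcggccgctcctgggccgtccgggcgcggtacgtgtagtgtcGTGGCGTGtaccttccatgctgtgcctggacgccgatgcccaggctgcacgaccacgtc
The Hmgcs1 window lies at chr13:119690101-119690400 on the plus strand, with its match 137 bases before the start. The Acat2 window lies at chr17:12960676-12960975 on the minus strand, with matches 181 and 53 bases before the start. The Insig1 window lies at chr5:28071162-28071461 on the plus strand, with its match 9 bases before the RefSeq start. GENCODE M21 starts Insig1 further upstream, at 28071363, so by that annotation the match lies inside the gene. The letters CCAAT, bound by NF-Y, were present in 21 of the 31 windows (67.7%) against 37.4% of all, and GGGCGG, bound by Sp1, in 25 of 31 (80.6%) against 35.7% of all. These are matches of letters in short windows and not measured binding.

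Library totals ran from 9.74 to 23.9 M counts (mega, median 22.8 M), with LP of mouse 2 the lowest. The tissue label held at the RNA level: all 7 macrophage markers had counts in every condition, with summed levels of 10966 to 15947 CPM in LP 3M PIC, 20554 to 26504 in LP 3M, 13192 to 19483 in LP PIC and 11047 to 18567 in LP, where CPM is a count per mega counts of the library total. T and NK cell, B cell, dendritic cell and mast cell markers summed to 1.05 CPM or less in every library, and the erythroid markers were at 0. Of 8 neutrophil markers 7 were in the tables, with sums of 4.86 to 537 CPM in LP 3M PIC, 4.04 to 17.2 in LP 3M, 2.94 to 5.76 in LP PIC and 1.26 to 3.49 in LP. Most of the LP 3M PIC sum was S100a8 at 133 ± 229 CPM (SD, n = 5), while S100a9 averaged 0.106 CPM and Retnlg was at 0. Fibroblast markers summed to 31.2 to 132, 30 to 88, 24.3 to 72 and 14.9 to 63.6 CPM in LP 3M PIC, LP 3M, LP PIC and LP. The 15 proliferation markers summed to 355 to 532 CPM in LP 3M PIC, 890 to 1289 in LP 3M, 353 to 416 in LP PIC and 1172 to 2119 in LP, so that they were low in both conditions that contain PIC. The part of these marker levels in the sterol gene results was not tested.

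Mean CPM was lowest in LP 3M PIC and highest in LP 3M for 13 of the 29 sterol genes, an order found in 2.32% of all tested genes. It was the most frequent order of the set and was singled out from these same values, so its share is a description and no test. Next came LP highest and LP 3M PIC lowest, for 7 genes, and LP 3M highest and LP PIC lowest, for 4. The remaining orders held 2, 2 and 1 genes. LP 3M PIC against LP 3M gave the largest number of calls, with 2 genes higher and 21 lower and a median log2 fold change of -0.70 over the 29, against 0.01 over all tested genes. That test called 41.5% of all tested genes (20.5% higher, 21.0% lower). A gene was called at an adjusted p under 0.05 (edgeR's quasi-likelihood test, with Benjamini-Hochberg adjustment across the 12132 genes), and changes are log2 fold changes with their SE, n = 5 mice per condition. As these are bulk samples, fewer cells of a type and less RNA per cell cannot be told apart.

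Between the 2 single formulations, LP 3M against LP PIC, 16 genes were higher and 2 lower (median 0.45), where the test called 47.1% of all tested genes, 24.4% higher and 22.7% lower. Together, 16 of the 29 (55.2%) were both lower in LP 3M PIC than in LP 3M and higher in LP 3M than in LP PIC, a pair of calls made for 10.4% of all tested genes; both comparisons use the same LP 3M libraries. Against LP, the dual formulation had 3 genes higher and 16 lower (median -0.40). That share of called genes, 65.5%, is near the 62.2% of all tested genes, while the lower calls alone covered 30.6% of all. LP 3M against LP had 8 higher and 3 lower (median 0.24) against a background of 39.5%, of which 20.0% were higher, so its count is near that of all genes. LP PIC against LP had 2 higher and 7 lower (median -0.23), and LP 3M PIC against LP PIC had 1 higher and 6 lower (median -0.20). Both are below their backgrounds of 45.5% and 44.5%. Without TMM scaling, LP 3M against LP gave 4 higher and 5 lower, with the median of all tested genes at -0.12 rather than -0.01. That run called 43.3% of all tested genes.

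**Figure D1:**
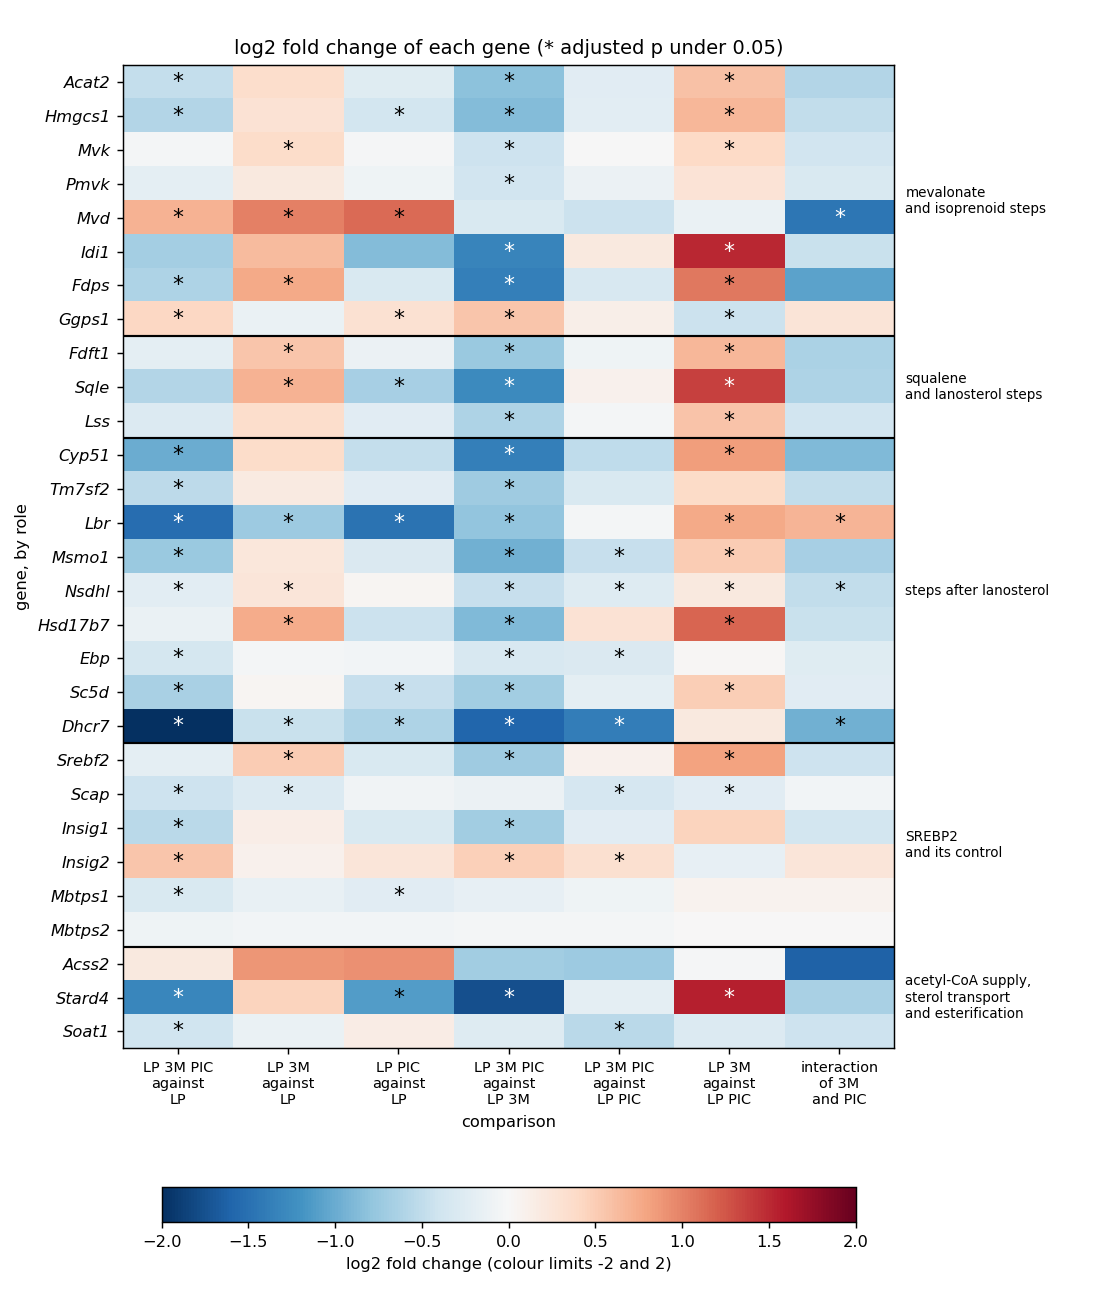
Log2 fold change of each of the 29 genes (rows, grouped by role) in the 6 pairwise comparisons and the interaction of 3M and PIC (columns), in colour from -2 to 2, with an asterisk where the adjusted p was under 0.05. The column of LP 3M PIC against LP 3M holds 21 lower and 2 higher calls, and that of LP 3M against LP PIC 16 higher and 2 lower.

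All 3 comparisons with LP share the same LP libraries, and the libraries of a mouse resemble each other, so a fit with mouse as a block was run as well. It called 3 higher and 19 lower for LP 3M PIC against LP, 12 and 3 for LP 3M against LP, 4 and 13 for LP PIC against LP, 2 and 23 for LP 3M PIC against LP 3M, 1 and 10 for LP 3M PIC against LP PIC, and 16 and 3 for LP 3M against LP PIC. Over all tested genes the blocked fit called 65.6%, 45.8%, 51.1%, 47.9%, 49.8% and 53.1% in these comparisons. Libraries of 2 conditions can also be compared by overlap. In LP 3M PIC against LP 3M, all 5 libraries lay below all 5 for 17 genes (12.8% of all tested genes) and above for 2 (12.2%). In LP 3M against LP PIC this held for 8 genes above and 1 below (32.1% of all tested genes in either direction), and in LP 3M PIC against LP for 2 above and 10 below (45.5%). LP 3M against LP had 6 above and 4 below (29.4%), LP PIC against LP 2 above and 3 below (33.9%), and LP 3M PIC against LP PIC 2 below (24.4%).

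The first block of the pathway makes the isoprenoid units. In LP 3M PIC against LP 3M, 6 of its 8 genes fell and 1, Ggps1, rose. Against LP, LP 3M PIC had 3 lower and 2 higher, LP 3M had 3 higher and none lower, and LP PIC had 1 lower and 2 higher. These are 62.5%, 37.5% and 37.5% of the 8 genes, shares near or below those of all tested genes (62.2%, 39.5% and 45.5%). In LP 3M against LP PIC, 5 were higher and 1 lower. The called shares of the 8 were 75% there and 87.5% in LP 3M PIC against LP 3M, against 47.1% and 41.5% of all tested genes.

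Hmgcs1 (chr13:119690379-119708260 in GENCODE M21 on GRCm38, plus strand) makes the HMG-CoA that commits carbon to mevalonate, and is the gene whose promoter above holds the full sterol element. For mice 1 to 5 in order, here and below, it had 24.2, 23, 31.9, 22.8 and 35.6 CPM in LP 3M PIC and 46.3, 52.9, 46.1, 46.7 and 58.3 CPM in LP 3M. In LP PIC it had 31.2, 32.7, 37.1, 21.3 and 44.1 CPM, and in LP 42.5, 45.7, 40.8, 40.8 and 51.5 CPM. All LP 3M PIC libraries lay below all LP 3M and LP libraries, and all LP 3M libraries lay above all LP PIC libraries, while LP 3M and LP overlapped. The log2 change was -0.87 ± 0.15 in LP 3M PIC against LP 3M (adjusted p = 0.00015) and -0.58 ± 0.15 against LP (adjusted p = 0.00216). For LP 3M against LP it was 0.29 ± 0.15, which did not pass (adjusted p = 0.127) but did with mouse as a block (adjusted p = 0.0209). The call for LP PIC against LP, -0.37 ± 0.15 with an adjusted p of 0.0475, was lost without mouse 1, 2, 3 or 4 (0.127, 0.133, 0.0696 and 0.133), without LP of mouse 2 (0.0745) without LP PIC of mouse 4 (0.132), without the filter on low counts (0.0776) and with the groups compared alone (0.0754).

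Mvd (chr8:122433601-122443422, minus strand), which decarboxylates mevalonate diphosphate to isopentenyl diphosphate, took another course from its neighbours. It had 17.3, 12.1, 34.2, 21.1 and 38.2 CPM in LP 3M PIC and 27.6, 29.3, 31.4, 24.9 and 37.6 CPM in LP 3M. Its LP PIC libraries held 30.5, 30.2, 37.2, 27.3 and 47.4 CPM and its LP libraries 14.7, 15.2, 16.5, 15.4 and 18.8 CPM. Every library of both single formulations lay above every LP library, whereas the dual ones were split, with mice 3, 4 and 5 above the LP range, mouse 1 within it and mouse 2 below it. Mvd rose by 1.14 ± 0.23 in LP PIC against LP (adjusted p = 0.000614) and by 1.01 ± 0.23 in LP 3M against LP (adjusted p = 0.00219). The rise of 0.70 ± 0.23 in LP 3M PIC against LP (adjusted p = 0.0135) was seen in 4 of 5 mice and lost without mouse 3 (adjusted p = 0.0799) and with limma-voom (adjusted p = 0.0637). Between LP 3M PIC and LP PIC it differed by -0.43 ± 0.23, called only with mouse as a block (adjusted p = 0.134, and 0.0138 with the block).

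The remaining genes of this block are Acat2, a cytosolic thiolase, the kinases Mvk and Pmvk, the isomerase Idi1, and Fdps and Ggps1, which lengthen the chain to farnesyl and geranylgeranyl diphosphate. Fdps averaged 22 ± 7.95 CPM in LP 3M PIC, 56.6 ± 9.29 in LP 3M, 28.8 ± 13.5 in LP PIC and 36.3 ± 4.17 in LP (SD, n = 5). Its fall of 1.37 ± 0.25 in LP 3M PIC against LP 3M (adjusted p = 0.000318) was among the larger ones. Against LP, its rise of 0.75 ± 0.25 in LP 3M had an adjusted p of 0.022 and its fall of 0.62 ± 0.25 in LP 3M PIC one of 0.0369. The first was lost without mouse 2 (0.0921), without mouse 4 (0.0607) and without LP of mouse 2 (0.0533). The second was lost without mouse 1, 2, 3 or 4 (0.119, 0.0744, 0.098 and 0.107), without LP 3M PIC of mouse 3 (0.0579) and without the filter on low counts (0.0606). Idi1, at 2.29 ± 0.755 CPM in LP 3M PIC, 5.71 ± 1.67 in LP 3M, 2.12 ± 1.26 in LP PIC and 3.92 ± 0.609 in LP, fell by 1.32 ± 0.36 in LP 3M PIC against LP 3M (adjusted p = 0.00615). It was higher by 1.50 ± 0.36 in LP 3M against LP PIC (adjusted p = 0.00204). With mouse as a block it also fell in LP 3M PIC (adjusted p = 0.0269) and LP PIC (adjusted p = 0.00722) against LP.

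Acat2 averaged 5.33 ± 1.43, 9.45 ± 0.474, 6.58 ± 1.29 and 8.01 ± 0.813 CPM in LP 3M PIC, LP 3M, LP PIC and LP. It fell by 0.82 ± 0.14 in LP 3M PIC against LP 3M (adjusted p = 0.000181) and by 0.47 ± 0.14 against LP (adjusted p = 0.00783, and 0.0619 without mouse 1). Its change of 0.35 ± 0.14 in LP 3M against LP did not pass (adjusted p = 0.0578) but did with mouse as a block (adjusted p = 0.0209). Mvk fell by 0.41 ± 0.11 in LP 3M PIC against LP 3M (adjusted p = 0.00626) and rose by 0.37 ± 0.11 in LP 3M against LP (adjusted p = 0.0126, and 0.0508 without mouse 1 or 0.0734 without TMM scaling). Pmvk was called in the first of these comparisons alone of the 6, at -0.38 ± 0.12 with an adjusted p of 0.0125, and not without mouse 1 (0.112) or mouse 2 (0.0909). Ggps1, which feeds geranylgeranylation of proteins rather than sterol, moved the other way. It averaged 18.9 ± 1.05 CPM in LP 3M PIC, 12.8 ± 1.75 in LP 3M, 18.2 ± 1.41 in LP PIC and 15.2 ± 0.608 in LP, and its LP 3M PIC and LP PIC libraries all lay above its LP libraries. It rose by 0.56 ± 0.08 in LP 3M PIC against LP 3M (adjusted p = 3.46e-05), by 0.42 ± 0.08 against LP (adjusted p = 0.000177) and by 0.30 ± 0.08 in LP PIC against LP (adjusted p = 0.00562).

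**Figure D2:**
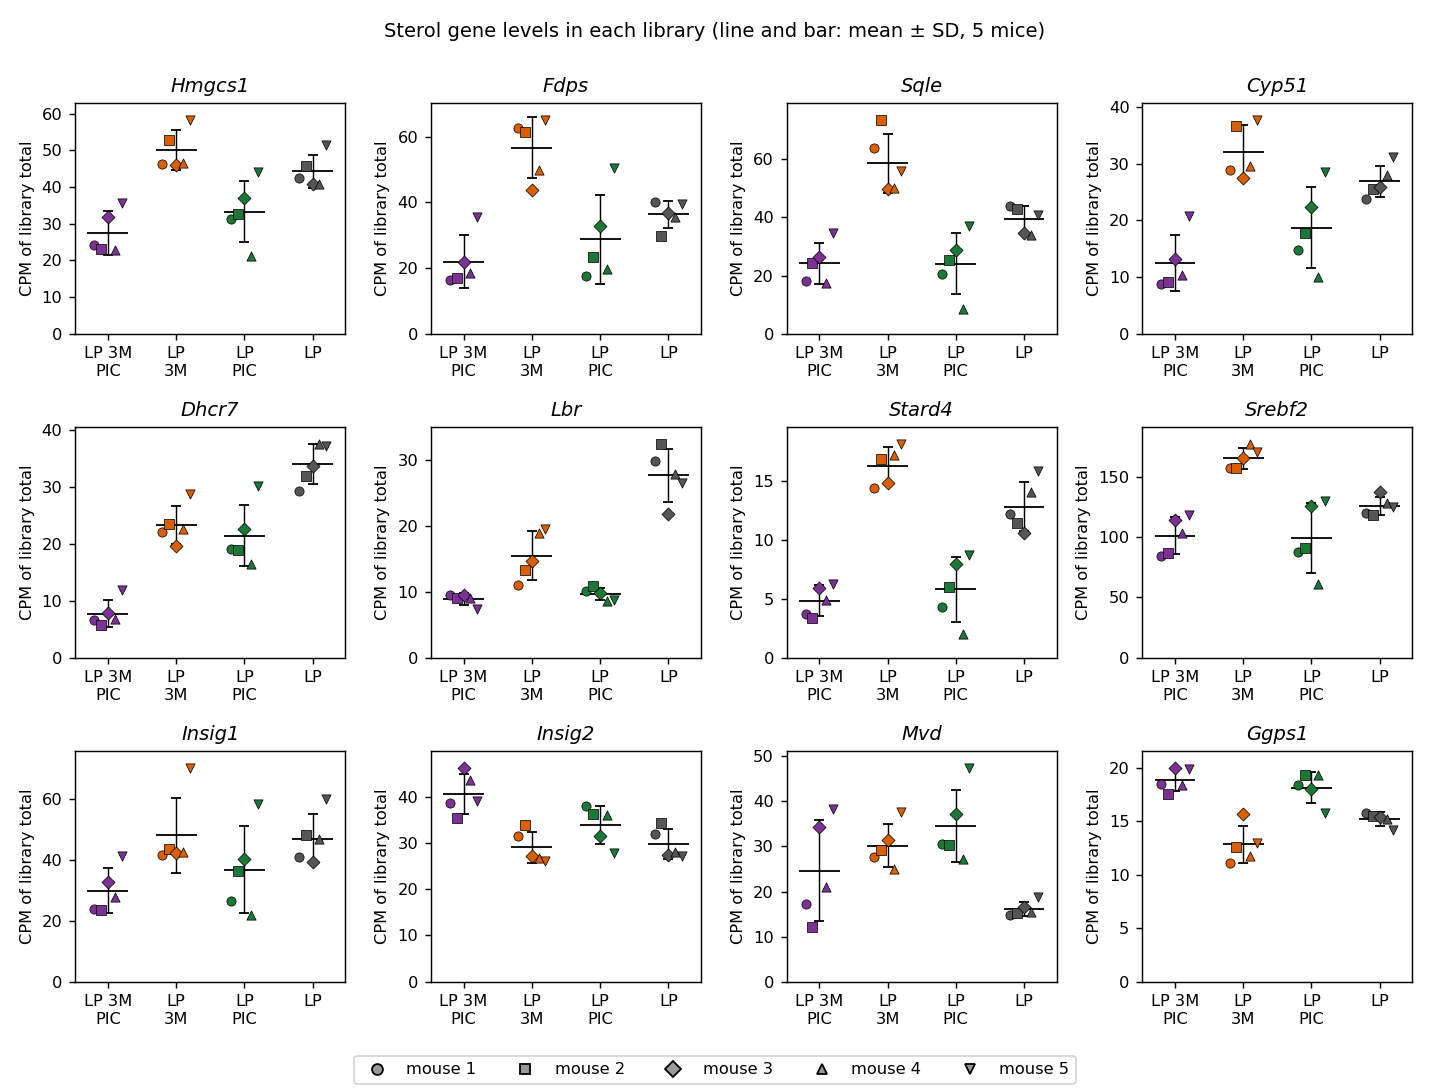
CPM of 12 of the genes (vertical axes, each from 0) in every library, by condition from LP 3M PIC to LP, with a symbol for each mouse and a line and bar for the mean ± SD of 5 mice. Hmgcs1, Fdps, Sqle, Cyp51, Stard4 and Srebf2 were highest on average in LP 3M, Dhcr7 was lowest in LP 3M PIC with at most 11.8 CPM, and Ggps1 and Insig2 were highest on average in LP 3M PIC.

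The 3 genes that make and close squalene, Fdft1, Sqle and Lss, all fell in LP 3M PIC against LP 3M and were all higher in LP 3M than in LP PIC. The first comparison called 21.0% of all tested genes lower, and the second called 24.4% higher. Sqle (chr15:59315077-59331192, plus strand), the squalene epoxidase and a rate-limiting step of the late pathway, had 18, 24.2, 26.5, 17.6 and 34.7 CPM in LP 3M PIC and 63.9, 73.5, 49.8, 50 and 55.9 CPM in LP 3M. The values were 20.6, 25.5, 28.7, 8.56 and 36.9 CPM in LP PIC and 44, 42.9, 34.8, 34.1 and 40.8 CPM in LP. Every LP 3M library lay above every other library, and the LP 3M PIC and LP PIC values overlapped each other throughout, with LP PIC of mouse 4 the lowest. Sqle fell by 1.28 ± 0.26 in LP 3M PIC against LP 3M (adjusted p = 0.000761) and was higher by 1.36 ± 0.26 in LP 3M against LP PIC (adjusted p = 0.000358). Against LP it rose by 0.69 ± 0.26 in LP 3M (adjusted p = 0.039) and fell by 0.67 ± 0.26 in LP PIC (adjusted p = 0.0419). Both calls were lost when certain single mice were left out. The first was lost without mouse 1, 2 or 3 (0.0967, 0.135 and 0.1), without LP of mouse 2 (0.0542), without TMM scaling (0.0808) and without the filter on low counts (0.0762). The second was lost without mouse 1, 2, 3 or 4 (0.15, 0.105, 0.0653 and 0.0528), without LP of mouse 2 (0.0715), without LP PIC of mouse 4 (0.0637), without the filter on low counts (0.0805) and with the groups compared alone (0.0918). In LP 3M PIC against LP the change of -0.59 ± 0.26 passed only with the block (adjusted p = 0.0549, and 0.0194 with the block), without mouse 4 (0.0228), without mouse 5 (0.0304), without LP PIC of mouse 4 (0.00778) or under other settings of the fit.

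Lss, the lanosterol synthase, averaged 22.6 ± 4.63, 34.5 ± 3.19, 24.3 ± 6.5 and 29.2 ± 2.28 CPM in LP 3M PIC, LP 3M, LP PIC and LP, and fell by 0.61 ± 0.14 in LP 3M PIC against LP 3M (adjusted p = 0.00217). With mouse as a block it was also lower in LP 3M PIC (adjusted p = 0.0402) and higher in LP 3M (adjusted p = 0.025) than in LP. Fdft1, the squalene synthase, fell by 0.75 ± 0.21 in LP 3M PIC against LP 3M (adjusted p = 0.00711). Its exons share 774 bases (18.3% of its exon length) with Ctsb on the opposite strand, whose mean was 1.51e+04 CPM and which itself fell by 0.56 ± 0.10 in that comparison and by 0.42 ± 0.10 in LP 3M against LP. The strand setting of the counting is not given in the sources used here, so reads of the pair may not be separated. In LP 3M against LP, Fdft1 rose by 0.55 ± 0.21 (adjusted p = 0.0395), while Ctsb fell. That call was lost without mouse 1, 2, 3 or 4 (0.115, 0.102, 0.0585 and 0.102), without LP of mouse 2 (0.0698), without LP 3M of mouse 5 (0.0599), without TMM scaling (0.0951) and without the filter on low counts (0.0689). Its difference between LP 3M and LP PIC, 0.66 ± 0.21 with an adjusted p of 0.013, was lost without mouse 1, 2 or 4 (0.0505, 0.0734 and 0.0948).

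The 9 genes after lanosterol all fell in LP 3M PIC against LP 3M, as did the 3 genes of the squalene and lanosterol steps, and 8 of 9 fell in LP 3M PIC against LP, Hsd17b7 being the exception at -0.14 ± 0.20. Of all tested genes, 21.0% were called lower in the first of these comparisons and 30.6% in the second. In LP 3M against LP 2 of the 9 rose and 2 fell, in LP PIC against LP 3 fell, and in LP 3M PIC against LP PIC 4 fell. These are 44.4%, 33.3% and 44.4% of the 9 genes, near or below the 39.5%, 45.5% and 44.5% of all tested genes.

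Dhcr7 (chr7:143823145-143848410, plus strand) encodes the last reductase, which turns 7-dehydrocholesterol into cholesterol, and its fall was the largest of the 29 in LP 3M PIC against LP. It had 6.54, 5.77, 7.89, 6.8 and 11.8 CPM in LP 3M PIC and 22, 23.4, 19.6, 22.6 and 28.8 CPM in LP 3M. LP PIC gave 19.1, 18.9, 22.5, 16.4 and 30.2 CPM, and LP gave 29.3, 31.9, 33.6, 37.5 and 37.2 CPM. The LP 3M PIC libraries lay below all 15 others, and the LP 3M libraries lay below all LP libraries. Dhcr7 fell by 2.02 ± 0.18 in LP 3M PIC against LP (adjusted p = 1.19e-08), a 4.05-fold lower level. It fell by 1.58 ± 0.17 against LP 3M (adjusted p = 2.52e-06) and by 1.39 ± 0.17 against LP PIC (adjusted p = 6.89e-06). The single formulations had smaller changes against LP. LP PIC gave -0.62 ± 0.17 (adjusted p = 0.00463, and 0.0557 without mouse 4). LP 3M gave -0.44 ± 0.17 (adjusted p = 0.0417), which was lost without mouse 1, 2, 3 or 4 (0.079, 0.0682, 0.166 and 0.131) and without the filter on low counts (0.0534).

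Lbr (chr1:181815335-181843046, minus strand), a sterol C14 reductase that also anchors lamin and heterochromatin at the nuclear envelope, fell under every formulation. It had 9.51, 9.02, 9.57, 9.1 and 7.43 CPM in LP 3M PIC and 11, 13.4, 14.7, 19 and 19.6 CPM in LP 3M. In LP PIC it had 10.2, 10.9, 9.85, 8.64 and 8.76 CPM, and in LP 29.9, 32.5, 21.8, 27.9 and 26.6 CPM. All libraries of each formulation lay below all LP libraries, LP 3M lay between, and LP 3M PIC and LP PIC overlapped. The falls against LP were 1.52 ± 0.13 in LP 3M PIC (adjusted p = 1.28e-08), 1.47 ± 0.13 in LP PIC (adjusted p = 4.26e-08) and 0.73 ± 0.13 in LP 3M (adjusted p = 0.000212). LP 3M PIC and LP PIC differed by -0.04 ± 0.13, with an interval of -0.33 to 0.24. The proliferation markers given above were likewise low in LP 3M PIC and LP PIC and intermediate in LP 3M. Tm7sf2, the other C14 reductase, averaged 3.41 ± 0.956 CPM in LP 3M PIC, 5.62 ± 1.28 in LP 3M, 4.48 ± 0.907 in LP PIC and 5.35 ± 0.59 in LP. It fell by 0.71 ± 0.19 in LP 3M PIC against LP 3M (adjusted p = 0.00612) and by 0.53 ± 0.19 against LP (adjusted p = 0.022). The second call was lost without mouse 3 (0.12), without mouse 4 (0.121) and without LP 3M PIC of mouse 3 (0.0602). It shares 12.1% of its exon bases with Vps51 on the same strand.

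Nsdhl (chrX:72918557-72958514, plus strand), a decarboxylating dehydrogenase of the C4 demethylation complex, had 13.1, 12.7, 13.7, 14 and 17.3 CPM in LP 3M PIC and 17.7, 19.9, 19.4, 20.4 and 19.9 CPM in LP 3M. Its LP PIC libraries held 18.4, 18.1, 15.7, 18.7 and 17.7 CPM and its LP libraries 17.1, 17.1, 19.9, 16.7 and 17.6 CPM. The dual libraries lay below all LP 3M libraries, and the other 3 conditions overlapped closely. Nsdhl fell by 0.46 ± 0.08 in LP 3M PIC against LP 3M (adjusted p = 0.000216). Its other called changes were between 0.20 and 0.26 in size and less stable. LP 3M PIC against LP, -0.21 ± 0.08 (adjusted p = 0.0308), was lost without mouse 1, 2, 3 or 4 (0.0874, 0.0925, 0.158 and 0.0575), without LP 3M PIC of mouse 3 (0.0593) and with the groups compared alone (0.0683). LP 3M PIC against LP PIC, -0.26 ± 0.08 (adjusted p = 0.0156), was lost without mouse 1, 2 or 4 (0.0968, 0.0744 and 0.0792). LP 3M against LP, 0.24 ± 0.08 (adjusted p = 0.0213), was lost without mouse 1, 2 or 4 (0.0614, 0.0969 and 0.137), without TMM scaling (0.181) and without the filter on low counts (0.0526). The 0.20 ± 0.08 of LP 3M against LP PIC (adjusted p = 0.0479) was lost with the block (0.0578), without any 1 of the 5 mice (up to 0.161), and without LP of mouse 2, LP 3M PIC of mouse 3 or LP 3M of mouse 5 (0.0521, 0.0543 and 0.0659). Other scalings and filters and the groups compared alone ended it too (0.0503 to 0.182).

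Hsd17b7 (chr1:169949535-169969241, minus strand), the 3-ketosteroid reductase of the same complex, had 9.1, 10, 8.69, 9.31 and 12.6 CPM in LP 3M PIC and 18.5, 21.1, 14.6, 16.8 and 20.7 CPM in LP 3M. The values were 6.77, 8.08, 11.3, 5.2 and 11.7 CPM in LP PIC and 10.6, 9.96, 10.4, 10.6 and 17.6 CPM in LP. LP 3M lay above all libraries with PIC, and overlapped LP only through LP of mouse 5. Hsd17b7 was higher by 1.16 ± 0.20 in LP 3M against LP PIC (adjusted p = 9.55e-05) and by 0.74 ± 0.19 against LP (adjusted p = 0.00524, and 0.05 without mouse 2), and fell by 0.88 ± 0.19 in LP 3M PIC against LP 3M (adjusted p = 0.00144). With mouse as a block it was also lower in LP PIC than in LP (adjusted p = 0.028).

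Cyp51, the lanosterol demethylase, averaged 12.5 ± 4.98, 32 ± 4.75, 18.7 ± 7.09 and 26.9 ± 2.82 CPM in LP 3M PIC, LP 3M, LP PIC and LP. It fell by 1.36 ± 0.24 in LP 3M PIC against LP 3M (adjusted p = 0.000192) and by 1.00 ± 0.24 against LP (adjusted p = 0.00118), and the dual libraries lay below all libraries of both. With the block it was also lower in LP PIC than in LP (adjusted p = 0.013) and in LP 3M PIC than in LP PIC (adjusted p = 0.0201). Msmo1, the C4 methyl oxidase, averaged 31.9 ± 9.5, 61.9 ± 10.6, 45.8 ± 9.74 and 57.5 ± 8.01 CPM in the same order of conditions. It fell by 0.96 ± 0.17 in LP 3M PIC against LP 3M (adjusted p = 0.000195), by 0.74 ± 0.17 against LP (adjusted p = 0.000778) and by 0.46 ± 0.17 against LP PIC (adjusted p = 0.0335). The last call was lost without mouse 1, 2 or 3 (0.111, 0.164 and 0.0955) and with the groups compared alone (0.0812), and with the block Msmo1 was also lower in LP PIC than in LP (adjusted p = 0.0281).

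Sc5d, the C5 desaturase, fell by 0.69 ± 0.14 in LP 3M PIC against LP 3M (adjusted p = 0.000899) and by 0.65 ± 0.14 against LP (adjusted p = 0.000619). In LP PIC against LP it fell by 0.46 ± 0.14 (adjusted p = 0.0137, lost without mouse 1 at 0.0693 and without mouse 2 at 0.0563), and with the block it was also lower in LP 3M PIC than in LP PIC (adjusted p = 0.0442). Ebp, the sterol isomerase, had smaller falls in LP 3M PIC, of 0.35 ± 0.09 against LP (adjusted p = 0.00212), 0.32 ± 0.09 against LP 3M (adjusted p = 0.00837) and 0.29 ± 0.09 against LP PIC (adjusted p = 0.013). The second was lost without mouse 1 (0.0777) or mouse 3 (0.0533), and the last without mouse 1 (0.0717). Ebp averaged 29.3 ± 4.26 CPM in LP 3M PIC, 36.4 ± 2.62 in LP 3M, 37.5 ± 2.91 in LP PIC and 40.3 ± 2.55 in LP.

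Among the regulators, the transcription factor followed the enzymes, while its partners differed from it and from each other. Srebf2 (chr15:82147181-82205379, plus strand) had 84.5, 86.4, 114, 103 and 118 CPM in LP 3M PIC and 157, 157, 165, 177 and 170 CPM in LP 3M. LP PIC gave 87.8, 90.8, 126, 60.8 and 130 CPM, and LP gave 120, 118, 137, 128 and 125 CPM. All LP 3M libraries lay above all others, and LP PIC spread widest, with mouse 4 the lowest. Srebf2 rose by 0.51 ± 0.15 in LP 3M against LP (adjusted p = 0.0104), was higher by 0.80 ± 0.15 against LP PIC (adjusted p = 0.000224), and fell by 0.71 ± 0.15 in LP 3M PIC against LP 3M (adjusted p = 0.000862). Against LP the changes of -0.20 ± 0.15 in LP 3M PIC (adjusted p = 0.237) and -0.30 ± 0.15 in LP PIC (adjusted p = 0.107) did not pass, and the second passed with the block (adjusted p = 0.0417).

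Scap (chr9:110333288-110384950, plus strand), the sterol-sensing escort of SREBP2, had 58.4, 52.2, 59.5, 57.9 and 74.1 CPM in LP 3M PIC and 68.6, 62.8, 67.5, 62.8 and 66.6 CPM in LP 3M. In LP PIC it had 82.5, 83.8, 82, 67.1 and 85.4 CPM, and in LP 84.7, 91.6, 82.5, 88 and 85.1 CPM. Both conditions with 3M lay below all LP libraries, and LP PIC overlapped LP, with its mouse 4 library the lowest. Scap fell by 0.41 ± 0.07 in LP 3M PIC (adjusted p = 6.44e-05) and by 0.28 ± 0.07 in LP 3M (adjusted p = 0.00371) against LP, and by 0.34 ± 0.07 in LP 3M PIC against LP PIC (adjusted p = 0.000834). It was lower by 0.22 ± 0.07 in LP 3M than in LP PIC (adjusted p = 0.0163, and 0.0575 without mouse 2), so that in LP 3M it stood opposite to Srebf2.

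Insig1 (chr5:28071363-28078662, plus strand), the retention factor that is itself a target of SREBP2, had 23.8, 23.5, 32.8, 27.8 and 41.2 CPM in LP 3M PIC and 41.6, 43.5, 42.1, 42.6 and 70.1 CPM in LP 3M. Its LP PIC libraries held 26.4, 36.4, 40.3, 22 and 58.4 CPM and its LP libraries 40.8, 48, 39.1, 46.9 and 59.8 CPM. Mouse 5 was the highest in all 4 conditions, and the dual libraries lay below all LP 3M libraries. Insig1 fell by 0.69 ± 0.22 in LP 3M PIC against LP 3M (adjusted p = 0.0183, lost without mouse 1 at 0.0502, mouse 2 at 0.0673 or LP 3M of mouse 5 at 0.0653). Against LP it fell by 0.54 ± 0.22 (adjusted p = 0.039), and this call was lost without mouse 1, 2, 3 or 4 (0.0805, 0.135, 0.059 and 0.0821), without LP of mouse 2 (0.0567) and without the filter on low counts (0.0593). With the block it was also lower in LP PIC than in LP (adjusted p = 0.0203) and higher in LP 3M than in LP PIC (adjusted p = 0.00322).

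Insig2 (chr1:121304353-121332589, minus strand), the second retention factor, rose where Insig1 fell. It had 38.6, 35.3, 46.2, 43.6 and 39 CPM in LP 3M PIC and 31.5, 33.8, 27.1, 26.8 and 26 CPM in LP 3M. The values were 37.9, 36.3, 31.4, 36.1 and 27.9 CPM in LP PIC and 32, 34.4, 27.3, 28.1 and 27.1 CPM in LP. The dual libraries lay above all LP 3M and all LP libraries. Insig2 rose by 0.56 ± 0.10 in LP 3M PIC against LP (adjusted p = 8.68e-05), by 0.48 ± 0.10 against LP 3M (adjusted p = 0.000929) and by 0.32 ± 0.10 against LP PIC (adjusted p = 0.0136, and 0.0993 without mouse 3). In LP PIC against LP its change of 0.24 ± 0.10 passed only with the block (adjusted p = 0.0648, and 0.0351 with the block), without mouse 5 (0.0473) or without LP of mouse 2 (0.0404).

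The proteases that release SREBP2 had small changes. Mbtps1, the site-1 protease, averaged 81 ± 3.38 CPM in LP 3M PIC, 90.5 ± 6.51 in LP 3M, 90.1 ± 11.4 in LP PIC and 108 ± 2.43 in LP. It fell by 0.31 ± 0.07 in LP 3M PIC (adjusted p = 0.000568) and by 0.22 ± 0.07 in LP PIC (adjusted p = 0.0106) against LP, the second lost without mouse 1 (0.0818) or mouse 4 (0.0994). Mbtps2, the site-2 protease, was called in none of the 6 comparisons or the interaction, with pairwise estimates from -0.09 ± 0.10 to -0.00 ± 0.10. It shares 28.4% of its exon bases with Yy2 on the same strand.

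Of the last 3 genes, Stard4 had the largest fall of the 29 in LP 3M PIC against LP 3M. It encodes a soluble carrier that moves cholesterol between membranes and is a known target of SREBP2. It had 3.67, 3.38, 5.9, 4.92 and 6.28 CPM in LP 3M PIC and 14.4, 16.8, 14.8, 17.2 and 18.1 CPM in LP 3M. LP PIC gave 4.32, 6, 7.93, 1.98 and 8.7 CPM, and LP gave 12.2, 11.4, 10.6, 14 and 15.8 CPM. Both conditions with PIC lay below every library of the conditions without PIC. Stard4 fell by 1.76 ± 0.26 in LP 3M PIC against LP 3M (adjusted p = 4.5e-05), a 3.38-fold lower level, and by 1.31 ± 0.26 against LP (adjusted p = 0.000267). It fell by 1.11 ± 0.26 in LP PIC against LP (adjusted p = 0.00174). LP 3M PIC and LP PIC differed by -0.19 ± 0.27, with an interval of -0.76 to 0.37.

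Soat1, which stores cholesterol as ester, was the most abundant of the set per length of transcript, at 33.4 CPM per kilobase of exon in LP 3M PIC, 40 in LP 3M, 50.9 in LP PIC and 47.4 in LP. Srebf2, for comparison, had 14.1, 23, 13.8 and 17.4 CPM per kilobase in the same order. Soat1 averaged 327 ± 71.8, 392 ± 49.6, 499 ± 48.2 and 464 ± 51.8 CPM, and its order of conditions differed from that of the enzymes. It fell by 0.54 ± 0.12 in LP 3M PIC against LP PIC (adjusted p = 0.00101) and by 0.40 ± 0.12 against LP (adjusted p = 0.00596, and 0.0509 without mouse 2). With mouse as a block it was also lower in LP 3M PIC than in LP 3M (adjusted p = 0.0217) and in LP 3M than in LP PIC (adjusted p = 0.0114).

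Acss2, which makes acetyl-CoA from acetate, varied widely between mice. It had 2.74, 2.27, 7.89, 4.03 and 8.84 CPM in LP 3M PIC and 6.03, 4.91, 10.5, 7.49 and 12.4 CPM in LP 3M. In LP PIC it had 6.18, 4.75, 14.1, 7.54 and 11.5 CPM, and in LP 4.42, 2.77, 6.67, 5.09 and 4.6 CPM. Both single formulations exceeded LP in 5 of 5 mice, and the dual one lay below both in 5 of 5 mice. Without the block edgeR's fit to all 20 libraries called it in no pairwise comparison (adjusted p from 0.0568 to 0.955), while DESeq2 called it in LP 3M (0.0414) and LP PIC (0.0288) against LP. With the block it was higher than in LP in LP 3M (0.88, adjusted p = 0.000345) and in LP PIC (0.88, adjusted p = 0.000265). The dual formulation was then lower than LP 3M (-0.76, adjusted p = 0.000992) and LP PIC (-0.76, adjusted p = 0.00091).

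Whether the dual formulation did more or less than the sum of both single ones was tested by the interaction, the change from PIC in the presence of 3M minus the change from PIC in its absence, on the log2 scale. Its estimate was below 0 for 24 of the 29 genes, against 49.9% of all tested genes, with a median of -0.45. The test called 8.43% of all tested genes, 3.82% above 0 and 4.62% below, and 4 of the 29. Mvd had -1.44 ± 0.33 (adjusted p = 0.0113), Nsdhl -0.50 ± 0.11 (adjusted p = 0.0115) and Dhcr7 -0.96 ± 0.24 (adjusted p = 0.0183). Mvd rose with each single formulation, and its change with the dual one was below their sum. Dhcr7 fell further with both adjuvants than the single changes add up to. Lbr was above 0 at 0.68 ± 0.19 (adjusted p = 0.0285), its fall in LP 3M PIC being smaller than the sum of the single falls. Each of the 4 had its direction in 5 of 5 mice.

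With mouse as a block the interaction called 1 gene above 0 and 10 below, against 13.6% of all tested genes. The added genes were Acss2 (-1.64, adjusted p = 0.00026), Msmo1 (-0.67, 0.00848), Fdps (-1.05, 0.0216), Cyp51 (-0.88, 0.0228), Hmgcs1 (-0.49, 0.0257), Acat2 (-0.60, 0.03) and Soat1 (-0.41, 0.0372). The unblocked calls depended on single mice, as did those over all tested genes. Of all tested genes the interaction called 1.5%, 2.4%, 5.77%, 1.99% and 11.5% without mouse 1, 2, 3, 4 or 5, against 8.43% with all. Mvd was lost without mouse 1 (0.0822) or mouse 4 (0.0596), Nsdhl without mouse 1, 2 or 4 (0.102, 0.0917 and 0.116), and Dhcr7 without mouse 1, 2, 3 or 4 (0.126, 0.0901, 0.059 and 0.0624). Lbr was lost without mouse 1, 2, 3 or 4 (0.169, 0.148, 0.0713 and 0.0919), without LP of mouse 2 (0.0563), without LP PIC of mouse 4 (0.0511) and with limma-voom (0.0541).

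**Figure D3:**
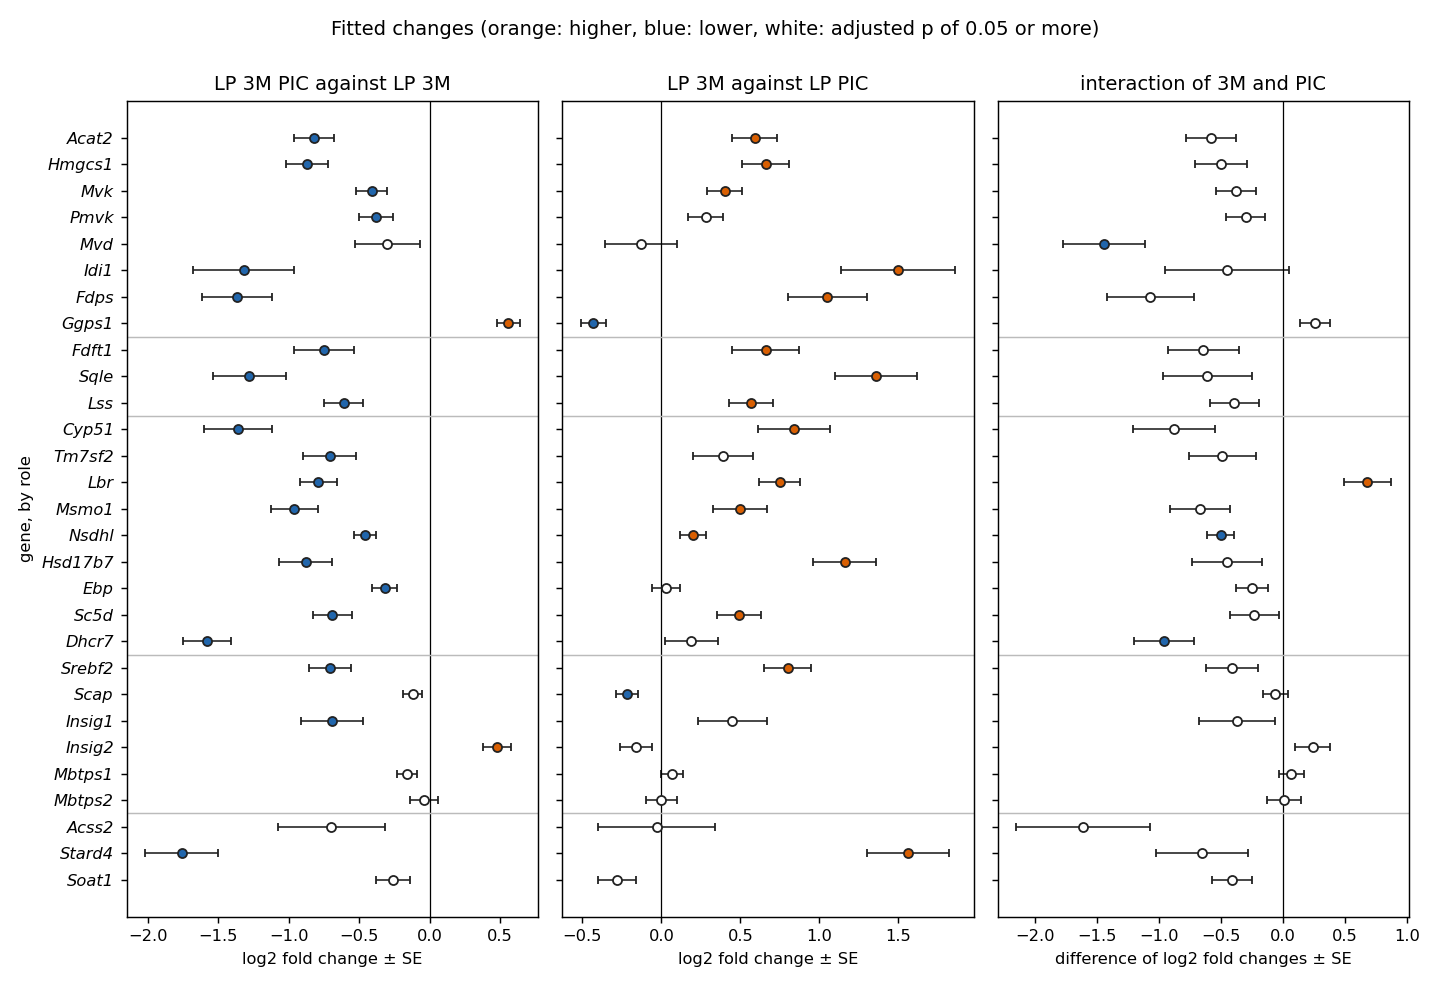
Fitted log2 fold change ± SE of the 29 genes (rows, by role) in LP 3M PIC against LP 3M, in LP 3M against LP PIC and in the interaction, with filled points where the adjusted p was under 0.05. Points of the first panel lie mostly left of 0 and of the second mostly right of it, and in the interaction Mvd, Nsdhl and Dhcr7 are called below 0 and Lbr above.

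Mice differed in how far the set as a whole moved. The median over the 29 genes of the log2 ratio to LP of the same mouse (0.5 CPM added) was -0.65, -0.60, -0.35, -0.57 and -0.21 in LP 3M PIC for mice 1 to 5. It was 0.12, 0.25, 0.14, 0.06 and 0.18 in LP 3M and -0.42, -0.29, -0.12, -0.75 and -0.00 in LP PIC. The median was thus below 0 in every dual library, above 0 in every LP 3M library, and ranged in LP PIC from the largest fall of all in mouse 4 to none in mouse 5. Counts of highest and lowest libraries were made from plain CPM and for these genes only. Without the share over all tested genes, they are not shown to be particular to the set. The library of mouse 5 was the highest of its condition for 24 genes in LP 3M PIC, 18 in LP 3M, 21 in LP PIC and 13 in LP. The LP PIC library of mouse 4 was the lowest of its condition for 19 genes. Without that library, 7 of the 29 genes rather than 9 were called in LP PIC against LP, 9 rather than 7 in LP 3M PIC against LP PIC, 17 rather than 18 in LP 3M against LP PIC and 6 rather than 4 in the interaction. Of all tested genes, 39.9% rather than 45.5%, 42.6% rather than 44.5%, 42.3% rather than 47.1% and 6.72% rather than 8.43% were then called. Without mouse 5, 17 of the 29 rather than 9 were called in LP PIC against LP and 8 rather than 4 in the interaction. Over all tested genes these shares were 43.4% rather than 45.5% and 11.5% rather than 8.43%.

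**Figure D4:**
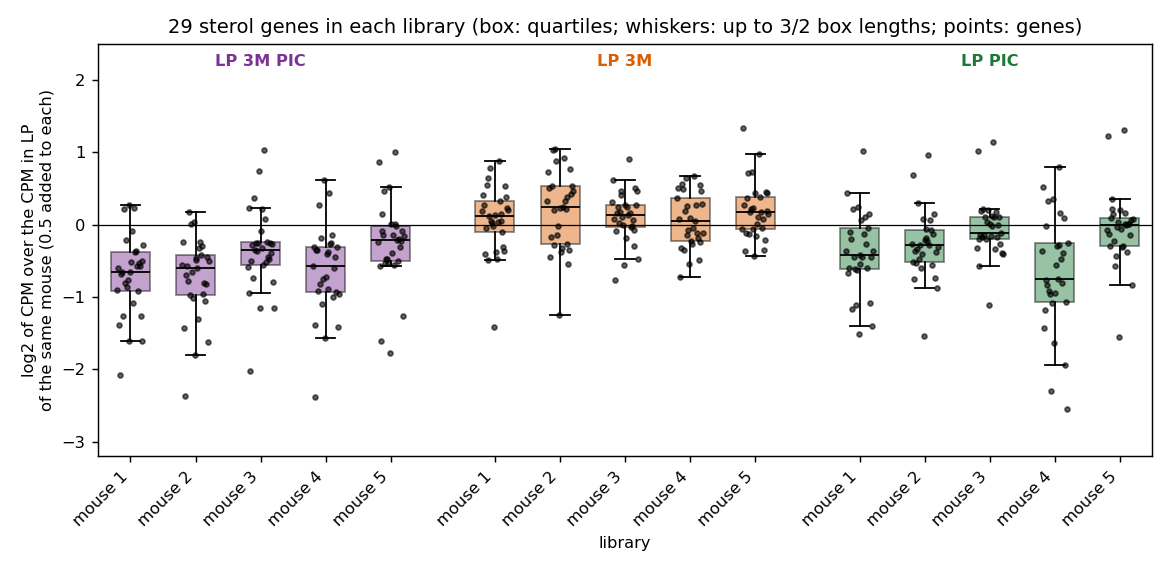
Log2 ratio of the CPM of each of the 29 genes to LP of the same mouse, 0.5 CPM added to each (vertical axis), in the 15 libraries of LP 3M PIC, LP 3M and LP PIC (horizontal axis), with boxes for the quartiles and points for genes. Medians run from -0.65 to -0.21 in LP 3M PIC, from 0.06 to 0.25 in LP 3M and from -0.75 to -0.00 in LP PIC.

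Neighbouring pathways were counted from lists of genes. In fatty acid synthesis, driven by the related factor SREBP1, none of 12 genes rose and 9 fell in LP 3M PIC against LP 3M (75% called, median -1.04). In LP 3M against LP PIC 6 were higher and none lower (50% called, median 0.60). Of all tested genes 41.5% were called in the first comparison, 21.0% lower, and 47.1% in the second, 24.4% higher, so the second called share is near that of all. Against LP, 1 of the 12 rose and 7 fell in LP 3M PIC (median -0.92), 4 rose and 2 fell in LP 3M, and none rose and 6 fell in LP PIC. The called shares against LP, 66.7%, 50% and 50%, are near or a little above those of all tested genes, 62.2%, 39.5% and 45.5%, of which 30.6%, 19.5% and 22.7% were lower. Mid1ip1, which helps acetyl-CoA carboxylase polymerise, fell by 1.77 ± 0.10 in LP 3M PIC against LP (adjusted p = 1.01e-10), and the elongase Elovl5 fell by 0.53 ± 0.07 (adjusted p = 1.25e-06). Me1, the malic enzyme that supplies NADPH, rose by 1.14 ± 0.18 (adjusted p = 1.73e-05).

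Genes of sterol sensing and sterol-regulated degradation in the endoplasmic reticulum had more higher than lower calls against LP: of 12, 9 rose and 2 fell in LP 3M PIC against LP (median 0.29), 6 rose and none fell in LP 3M, and 2 rose and 1 fell in LP PIC. The called shares were 91.7%, 50% and 25%, against 62.2%, 39.5% and 45.5% of all tested genes, of which 31.7%, 20.0% and 22.7% were higher. Gramd1a, a carrier of cholesterol from the plasma membrane, rose by 1.30 ± 0.22 (adjusted p = 4.56e-05) and Rnf145, a ubiquitin ligase of this system, by 0.64 ± 0.12 (adjusted p = 0.000109) in LP 3M PIC against LP. Tmem97 rose by 0.58 ± 0.10 in LP 3M against LP (adjusted p = 0.000128).

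Of 8 genes of oxysterols, LXR and sterol export, 6 were tested, and 3 rose and 1 fell in LP 3M PIC against LP (median 1.02), 2 rose and 3 fell in LP 3M, and 2 rose and none fell in LP PIC. These are 66.7%, 83.3% and 33.3% of the 6 genes, against 62.2%, 39.5% and 45.5% of all tested genes. Nr1h3, the receptor LXR alpha, rose by 2.78 ± 0.26 (adjusted p = 5.23e-08) and the exporter gene Abca1 by 2.15 ± 0.26 (adjusted p = 8.17e-07) in LP 3M PIC against LP, while the exporter gene Abcg1 fell by 0.73 ± 0.08 (adjusted p = 4.11e-07). Ch25h, named after its values were seen, encodes the enzyme that makes 25-hydroxycholesterol, an oxysterol that holds SREBP2 in the endoplasmic reticulum. It averaged 39.1 ± 27.8 CPM in LP 3M PIC, 6.37 ± 1.93 in LP 3M, 10 ± 5.46 in LP PIC and 4.61 ± 2.12 in LP. It rose by 3.21 ± 0.49 in LP 3M PIC against LP (adjusted p = 1.59e-05) and by 2.63 ± 0.47 against LP 3M (adjusted p = 0.00026).

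The users of isoprenoids, 12 genes of prenylation, dolichol and ubiquinone synthesis, were mixed. In LP 3M PIC against LP 5 rose and 3 fell (median 0.09), in LP 3M 3 rose and 1 fell, and in LP PIC 3 rose and 2 fell. The called shares of 66.7%, 33.3% and 41.7% are near those of all tested genes (62.2%, 39.5% and 45.5%). Coq2, of ubiquinone synthesis, fell by 0.65 ± 0.09 (adjusted p = 5.57e-06) in LP 3M PIC against LP, as did both subunits of farnesyltransferase, Fntb by 0.49 ± 0.09 (adjusted p = 9.19e-05) and Fnta by 0.26 ± 0.07 (adjusted p = 0.00505).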

How the data were processed

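For each library the authors deposited a table of read counts by gene symbol, whole numbers without normalisation, made from stranded poly(A) libraries per the labels' protocols. Build GRCm38 and the tools HTSeq 0.13.5, STAR 2.7.11b, FastQC 0.11.1 and DESeq2 1.44.0 are named in the submitters' processing notes. Neither the annotation nor the strand setting of the counting is given in the sources used here. Reads outside genes (5.94 to 8.58%) and shared by genes (1.14 to 1.90%) stayed out of library sizes and tests.

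Groups follow the treatment labels. The analysis used edgeR 4.0.16 in R 4.3.3: filterByExpr (minimum count 10, minimum total 15) kept 12132 genes holding 99.969% of all counts, TMM scaled the libraries (factors 0.945 to 1.07), and a robust quasi-likelihood F-test, two-sided, was fitted to all 20 libraries with a mean per condition. The biological coefficient of variation was 0.194. Adjusted p-values are Benjamini-Hochberg values over all tested genes, the SE of a log2 change is its size over the square root of F, and intervals of a change are 95% intervals. Printed CPM use plain library totals, while fold changes use TMM-scaled ones, and counts of mice use plain CPM. Alternatives used limma 3.58.1 (voom), DESeq2 1.42.0, other scalings and filters, the groups compared alone, mouse as a block, and left-out mice or libraries. Figures came from matplotlib 3.10.9, and tables from numpy 2.4.6 and pandas 2.3.3, in Python 3.11.15. The fit was also run on simulated counts with independent libraries, the same spread for every gene and few genes changed. That run does not cover the pairing by mouse or changes as broad as those found here.

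Equal replicate numbers mark the same mouse, per the labels. Deviations of libraries of the same mouse from their group means correlated at 0.137 to 0.541 (median 0.399, 30 pairs), and those of different mice at -0.404 to 0.375 (median -0.152, 120 pairs), so the numbers pair the libraries and values with the block are printed where they change a call. No 2 of the 190 pairs of libraries were duplicates (chi-squared per degree of freedom 7.73 to 567).

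The genes and lists were chosen with earlier results of these data known. The naming rule gives values per library for the 4 members with the smallest p in each comparison with LP, the 3 in the interaction, and Srebf2, Insig1, Insig2, Hmgcs1 and Sqle, and from each further list names the 3 tested genes with the smallest p over the comparisons with LP. Acss2 was added after its values were seen. Exon lengths, overlaps and gene coordinates come from GENCODE M21, and promoters from RefSeq.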

Additional observations from a re-analysis of the deposited data

Results flagged for a closer look

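Among 116 sets of 5 libraries (29 genes in 4 conditions), 9 held a library far from the other 4 by Dixon's test, where chance gives about 1 in 20, or 5.8. Of these 9, 7 were libraries of mouse 5. In LP 3M PIC, mouse 5 stood above the others for Acat2 (7.82 CPM, others 4.18 to 5.13), Fdps (35.7 CPM, others 16.4 to 22) and Nsdhl (17.3 CPM, others 12.7 to 14), and below them for Lbr (7.43 CPM, others 9.02 to 9.57). In LP 3M, mouse 5 had 70.1 CPM of Insig1, against 41.6 to 43.5 in the others. In LP PIC, mouse 5 had 8.81 CPM of Acat2, against 5.65 to 6.39 in the others, and mouse 4 had 67.1 CPM of Scap, against 82 to 85.4. In LP, mouse 5 had 17.6 CPM of Hsd17b7, against 9.96 to 10.6, and mouse 3 had 19.9 CPM of Nsdhl, against 16.7 to 17.6.

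The effect of PIC was called different with and without 3M, by edgeR's quasi-likelihood test of the difference, for Mvd (-1.44, adjusted p = 0.0113), Nsdhl (-0.50, adjusted p = 0.0115), Dhcr7 (-0.96, adjusted p = 0.0183) and Lbr (0.68, adjusted p = 0.0285). That test called 8.43% of all tested genes. Each of these calls was lost when certain single mice were left out, and none remained without mouse 1 or without mouse 4.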

How the results depend on the processing

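No called change of a single gene turned its sign under any alternative run. In LP 3M against LP, where 11 of the 29 genes were called, 7 were called without the filter on low counts and 19 with the groups compared alone. Of all genes then tested, these settings called 25% and 42.1%, against 39.5% in the main fit. With mouse as a replicate block, 17 rather than 9 of the 29 were called in LP PIC against LP, 11 rather than 7 in LP 3M PIC against LP PIC, and 11 rather than 4 in the interaction, where DESeq2 called 6 and limma-voom 3. Over all tested genes the block called 51.1%, 49.8% and 13.6% in these. For the interaction DESeq2 called 11.2% of all tested genes and limma-voom 6.17%. Leaving out 1 mouse or 1 library gave 14 to 21 of the 29 genes in LP 3M PIC against LP (19 with all), 5 to 15 in LP 3M against LP, 5 to 17 in LP PIC against LP, 20 to 25 in LP 3M PIC against LP 3M (23 with all), 4 to 9 in LP 3M PIC against LP PIC, 14 to 20 in LP 3M against LP PIC (18 with all) and 0 to 8 in the interaction. Over all tested genes, the called shares in the comparisons with LP ran from 55.5 to 62.9%, 29 to 42% and 34.5 to 45.6% in that order. In the later ones they ran from 31.6 to 42.2%, 33.2 to 45.3%, 34.6 to 47% and 1.5 to 11.5%. The interaction's 0 of the 29 came without mouse 1 and without mouse 4. Those runs called 1.5% and 1.99% of all tested genes, against 8.43% with all mice, so the loss of calls was not particular to the set. The removal of LP PIC of mouse 4 was chosen after seeing the data. Of the 121 single-gene values called in the main or in the blocked fit, the block kept the call of 90, ended 1 and added 30. The causes of these shifts were not tested. Without TMM the median of all tested genes moved to -0.10 in LP 3M PIC against LP. Counting error weighs most on Idi1, with condition means of 2.12 to 5.71 CPM.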
